A study of Mus musculus with 3 samples.

Results

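The loci of 6 genes of the immediate early response were examined for binding of NUR77: Fos, Jun, Junb, Egr1, Atf3 and Dusp1. The members were all called peaks whose centre lay in 1 of 6 windows of mouse genome build mm9, chr12 86.74 to 86.90 Mb for Fos, chr4 94.60 to 94.82 Mb for Jun, chr8 87.44 to 87.56 Mb for Junb, chr18 34.95 to 35.10 Mb for Egr1, chr1 192.90 to 193.10 Mb for Atf3 and chr17 26.56 to 26.73 Mb for Dusp1. Together the windows span 1.02 Mb and held 84 of the 52946 peaks, 14 of 6777 in replicate 1, 52 of 37307 in replicate 2 and 18 of 8862 in replicate 3. Merged over the replicates, these peaks form 54 of 38463 regions.

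The study profiled chromatin by ChIP-seq with an antibody against the HA tag in RAW264.7, an established mouse macrophage line. The cells were a stable line with the transgene pINDUCER20b-HA-NUR77, which makes HA-tagged NUR77 when doxycycline is added. All 3 samples form 1 group, exposed to doxycycline at 1 µg/mL for 18 hours, with 6 dishes per replicate. Every sample was thus treated to induce the tagged receptor, whose level was not measured in the files used, and a sample without doxycycline or without the tag was not analysed here. The labels do not say whether the replicates were grown on separate days, so the spread between them may be technical. Sequencing depth is unknown, since the lists hold no read counts.

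Immediate early genes are switched on within minutes of a stimulus without new protein synthesis, largely by transcription factors that are already present, such as the serum response factor and CREB. Fos and the Jun proteins pair to form the AP-1 transcription factor. Egr1 is a zinc finger transcription factor, and Atf3 is a bZIP factor of the ATF/CREB family that restrains Toll-like receptor responses in macrophages. Dusp1 is not a transcription factor but a phosphatase that inactivates the MAP kinases p38 and JNK. NUR77 itself, the product of Nr4a1, is an orphan nuclear receptor encoded by an immediate early gene. As a monomer it binds the NBRE element, AAAGGTCA. RNA was not measured in these samples.

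The stretch of 250 bases before the transcription start was searched in the RefSeq promoters (GRCm38.p6) of the 5 members in the promoter table, Fos, Jun, Junb, Atf3 and Dusp1. The NBRE, AAAGGTCA, was found on neither strand of any of the 5, against 1.34% of 32851 promoter entries that hold it. Its core AGGTCA, which lies within the NBRE, was also in 0 of 5, against 14.0% of all entries. The AP-1 element TGACTCA (4.46% of entries) and the CArG box bound by the serum response factor (1.47%) were not matched either. The cyclic AMP response element TGACGTCA, bound by CREB and ATF proteins, was in the promoter of Dusp1 alone (1.55% of entries). Its shorter core TGACG, searched after the sequences had been seen and contained in the full element, was in 4 of 5 members, Fos, Junb, Atf3 and Dusp1, and in 17.8% of entries. Such matches describe the letters in this stretch only. The Fos and Dusp1 promoters are shown since each holds more than 1 such core, with TGACG on either strand in capitals. They lie at chr12:85473640-85473889 on the plus strand and at chr17:26508473-26508722 on the minus strand of GRCm38.p6.
Fos: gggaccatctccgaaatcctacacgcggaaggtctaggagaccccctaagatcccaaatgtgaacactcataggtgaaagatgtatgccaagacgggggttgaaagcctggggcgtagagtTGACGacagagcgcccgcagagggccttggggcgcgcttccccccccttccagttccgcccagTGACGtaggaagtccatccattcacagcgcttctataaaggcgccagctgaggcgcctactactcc
Dusp1: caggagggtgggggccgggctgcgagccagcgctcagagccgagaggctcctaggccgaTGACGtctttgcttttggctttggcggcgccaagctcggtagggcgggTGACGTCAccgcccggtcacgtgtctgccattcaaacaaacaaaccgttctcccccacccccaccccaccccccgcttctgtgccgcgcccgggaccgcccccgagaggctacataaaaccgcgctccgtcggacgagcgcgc
In Fos the cores begin 129 and 66 bases before the start. In Dusp1 one begins 191 bases before the start, and the full element begins 143 bases before it.

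Peaks were denser in the 6 windows than over the whole list in each replicate. With 3 replicates the difference cannot be called at a p of 0.05. The windows were also chosen with earlier results of these data known, so the densities are a description. Replicate 1 had 13.7 peaks per Mb in the windows against 2.55 over the nuclear genome, replicate 2 had 51.0 against 14.1, and replicate 3 had 17.6 against 3.34. These ratios came to 5.38, 3.63 and 5.29, and averaged 4.76 ± 0.985 (SD, n = 3). The ratio was above 1 in 3 of 3 replicates (exact two-sided sign-flip permutation test of the log2 ratio, p = 0.25, the smallest that 3 replicates allow). The reference includes gene-poor and unmappable sequence, and windows around other genes were not compared. Each of the 6 windows was above the whole-list density in each replicate. Atf3 had the highest mean ratio, 8.75 ± 1.18, and Jun the lowest, 2.85 ± 0.658. Between them, Junb had 4.83 ± 1.79, Dusp1 4.42 ± 0.984, Egr1 4.21 ± 2.45 and Fos 3.25 ± 0.701 (SD, n = 3 each), and the SDs of these neighbours in the order overlap. Without the Atf3 window, chosen for this after its values were seen, the ratio was 4.30, 2.69 and 4.38 in replicates 1, 2 and 3.

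**Figure D1:**
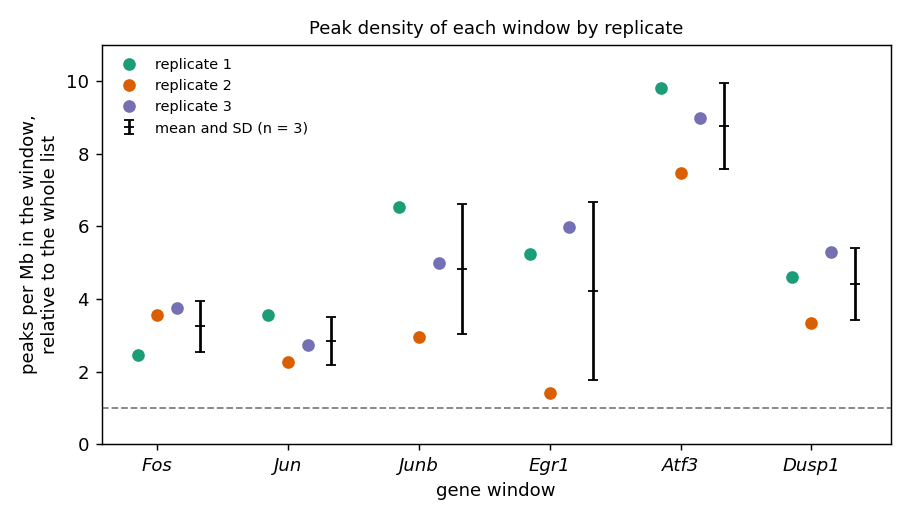
Peaks per Mb in each gene window divided by peaks per Mb over the whole list (vertical axis), by gene (horizontal axis). Points are replicates, black bars the mean and SD of 3 replicates, and the dashed line marks a ratio of 1. All points lie above the line, Atf3 highest with 7.47 to 9.80, and Egr1 spreads most, from 1.42 in replicate 2 to 5.99 in replicate 3.

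Of the 54 regions, 19 held peaks of at least 2 replicates (35.2%, 95% Wilson interval 23.8 to 48.5), against 25.4% of all regions. All 3 replicates were present in 11 (20.4%, 11.8 to 32.9), against 12.3%. Both intervals, which treat regions as independent and cover counting error only, include the whole-series share. Regions are not replicates, and 21 of the 54 lay in the Atf3 window. Whether the part shared between replicates differs from that of the series was therefore not tested. The share depends on the list of replicate 2: without it, 12 regions of the windows (60.0%) were in both other lists, against 45.0% over the series. With lists of equal length 12 regions (54.5%, against 53.8%) were in at least 2. Of these 12, 5 were in all 3, where the series had 3391 of 5922 among its 11017 regions. With the higher-scored 50% of each list 10 (29.4%, against 24.8%) were in at least 2. Of these 10, 4 were in all 3, where the series had 2557 of 4749 among its 19166 regions. Under both list limits the members' share in all 3 thus lay below that of the series, the reverse of the full lists. This was not tested. Without the Atf3 window, 6 of 33 regions were of all 3 replicates. Replicate 2 alone accounted for 34 regions (63.0%, against 72.1% of all regions) and replicate 3 alone for 1. All 14 peaks of replicate 1 overlapped another list, against 94.3% over its whole list, as did 17 of the 18 of replicate 3 (94.4%, against 93.2%) and 18 of the 52 of replicate 2 (34.6%, against 25.7%). Sharing was thus close to that of the whole lists for replicates 1 and 3. A region of all 3 replicates was present in 5 of the 6 windows, all but that of Junb. Among consecutive windows of the mean width, 170 kb, laid over the nuclear genome, 19.0% held such a region, or 35.9% of those with a peak in any list. A region of at least 2 replicates was present in all 6 windows, against 28.9% of consecutive windows and 54.7% of those with a peak.

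**Figure D2:**
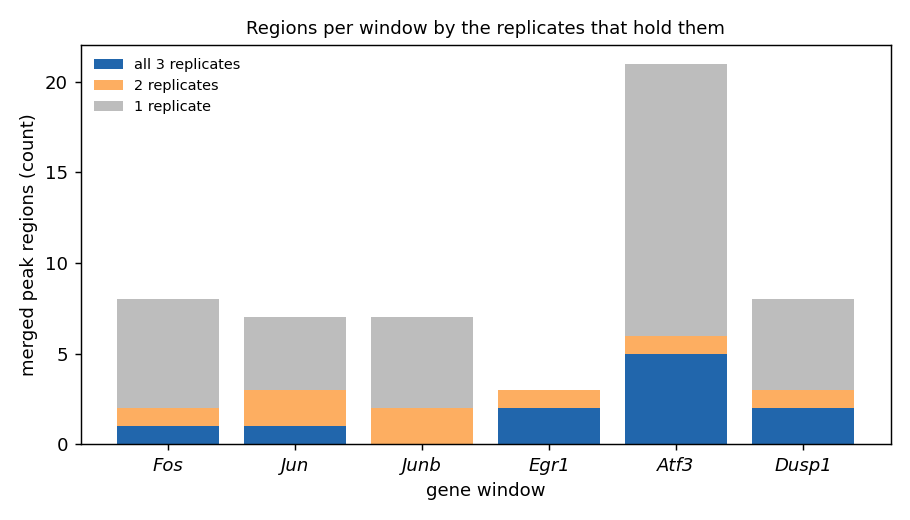
Number of merged peak regions (vertical axis) in the window of each gene (horizontal axis), divided by how many replicates hold a peak in the region. Atf3 has 21 regions with 5 of all 3 replicates, Egr1 has only 3 regions and all are shared, and Junb has 7 with none of all 3.

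**Figure D3:**
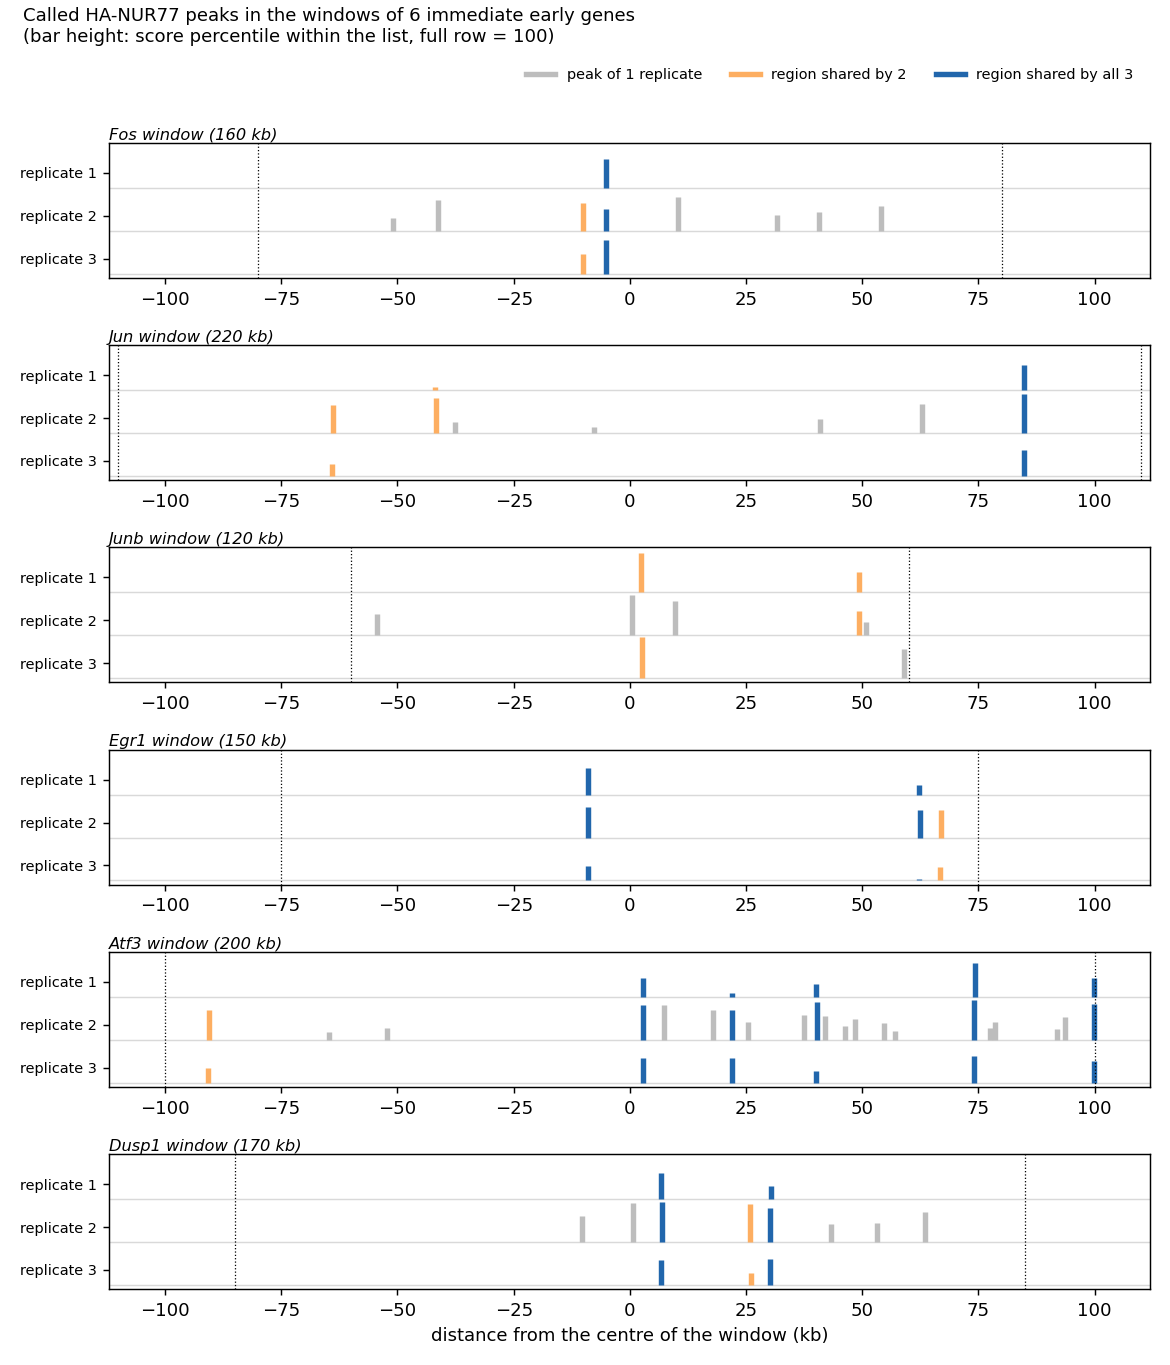
Position of each called peak as distance from the centre of its window in kb (horizontal axis), with 1 row per replicate and 1 panel per gene. Bar height is the score percentile within that replicate's list, colour gives the number of replicates that share the region, and dotted lines are the window borders. Replicate 2 has the most peaks in every window but that of Egr1, where it has 3 as replicate 3 does.

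The score of a peak is the authors' own value of unstated scale, so scores of different lists were not compared with each other. Each shared region is given with its percentiles within the lists, where 100 is the best. Replicate 2's list is the longest and reaches down to many peaks that the other lists lack, so its percentiles are not on the same footing as those of replicates 1 and 3. In the 11 regions of all 3 replicates the median percentile was 44.7, 81.0 and 57.9 for replicates 1, 2 and 3. Over the 4723 such regions of the whole series it was 60.1, 91.3 and 66.0. The members' medians thus lay below those of the series in each list, as a description with no test. By mean percentile the best of the 11 was the Atf3 region at chr1:193073804-193074403, at place 1765 of 4723, and the lowest was an Egr1 region at place 4593.

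Fos, an AP-1 subunit, had 1 peak in replicate 1, 8 in replicate 2 and 2 in replicate 3, in 8 regions. The only region of all 3 replicates lay at chr12:86814617-86815024, with scores of 63.2, 81.3 and 98.8 in replicates 1, 2 and 3, at percentiles of 68.5, 51.5 and 78.6. It was the single region of the 11 with its highest percentile in replicate 3, as replicate 2 gave the highest percentile in the other 10. This order holds for percentiles, which depend on list length, and is different by rank. The 3 centres of the Fos region lay within 47 bp. A second region 4.95 kb away, at chr12:86809617-86810116, had scores of 118 in replicate 2 and 47.4 in replicate 3, at percentiles of 64.7 and 46.6. The other 6 regions were peaks of replicate 2 alone, with scores of 46.6 to 196. Of these, the highest-scored one exceeded both shared Fos regions in that list. At least 2 regions of at least 2 replicates were found in 14.3% of consecutive windows as wide as that of Fos. In RefSeq order the next genes with a protein product are Tmed10 and Nek9 on one side and Jdp2 and Batf, which also encode bZIP factors, on the other.

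Jun, the AP-1 partner of Fos, had 2, 7 and 2 peaks in replicates 1, 2 and 3, in 7 regions. Its region of all 3 replicates, at chr4:94794526-94795175, scored 52.5, 351 and 63.2, at percentiles of 59.1, 90.2 and 61.3. A region at chr4:94645776-94646325 scored 122 in replicate 2 and 34.1 in replicate 3, at percentiles of 66.0 and 26.8. Another, at chr4:94668026-94668675, scored 25.2 in replicate 1 and 208 in replicate 2, at percentiles of 8.15 and 80.7. The same site was thus near the bottom of one list and in the upper part of another, much longer one. By rank it stood at 6225 of 6777 in replicate 1 and at 7217 of 37307 in replicate 2. The 3 shared regions were spread over 149 kb, and the last lay 126.5 kb from its neighbour. The remaining 4 regions were of replicate 2 alone, with scores of 33.6 to 128. Windows of the same width held at least 3 regions of at least 2 replicates in 11.4% of cases. Mysm1 and Eqtn lie next to Jun on one side in RefSeq order, and Fggy and Hook1 on the other.

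Junb, an AP-1 subunit with weaker activating capacity than Jun, had the best-scored peaks of all 6 windows in each list, but at different positions. Replicates 1 and 3 had their peak at chr8:87502410-87502775, with scores of 140 and 272, which ranked 536 in replicate 1 and 296 in replicate 3. These percentiles, 92.1 and 96.7, were the highest of any peak of those replicates in the windows. Replicate 2 had no peak there. Its own best peak of the windows, with a score of 553 and rank 1792, lay at chr8:87500369-87500668, and 1.74 kb separated the nearest borders. The peaks of replicate 2 before and after the site carry the consecutive numbers 41752 and 41753, so no numbered peak of that list is missing between them. Regions of replicates 1 and 3 without replicate 2 were rare over the series, with 169 of 38463 (0.439%). The widths of these peaks were 200, 300 and 300 bp in replicates 1, 2 and 3, against medians of 350, 500 and 350 bp for the whole lists. A second shared region, at chr8:87549119-87549618, scored 43.6 in replicate 1 and 93.1 in replicate 2, at percentiles of 48.5 and 56.6. Replicate 2 alone had 4 regions, with scores from 48.4 to 553, and replicate 3 alone had 1 at chr8:87558876-87559125, which scored 76.0. At least 2 regions of at least 2 replicates were present in 10.6% of windows of this width. The neighbouring genes in RefSeq order are Prdx2 and Rnaseh2a on one side and Hook2 and Best2 on the other.

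Egr1, a zinc finger factor induced by growth signals, had the fewest regions, and each was shared. Replicate 1 had 2 peaks, replicate 2 had 3 and replicate 3 had 3, although the whole lists of replicates 1 and 3 are much shorter than that of replicate 2. The region at chr18:35015835-35016384 scored 55.3, 142 and 38.7 in replicates 1, 2 and 3, at percentiles of 62.0, 70.7 and 34.8. The region at chr18:35087035-35087634 scored 30.5, 113 and 23.9, at percentiles of 22.9, 63.2 and 4.24, and the last was the lowest of all peaks of that list in the windows. The third, at chr18:35091585-35092134, lay 4.53 kb further and scored 115 in replicate 2 and 37.3 in replicate 3, at percentiles of 63.8 and 32.4. The 2 of all 3 replicates were 71.2 kb apart between centres. At least 3 regions of at least 2 replicates were found in 6.95% of consecutive windows of this width. The density of this window was 8.58, 1.91 and 10.0 times that of chromosome 18 as a whole in replicates 1, 2 and 3. Its neighbours in RefSeq order are Reep2 and Kdm3b on one side and Etf1 and Hspa9 on the other.

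Atf3, the ATF/CREB family member, had the most peaks of the 6 genes, 5, 21 and 6 in replicates 1, 2 and 3. It accounted for 21 of the 54 regions, 6 of the 19 with at least 2 replicates and 5 of the 11 with all 3. Windows of the same width with at least 6 regions of at least 2 replicates made up 1.84% of consecutive windows. The 5 regions of all 3 replicates lay on one side of the window, spaced over the stretch from chr1:193002504-193003103 to chr1:193099504-193100103. The first of them scored 40.8, 211 and 58.7 in replicates 1, 2 and 3, at percentiles of 43.8, 81.0 and 57.9. The next, at chr1:193021704-193022253, scored 25.7, 137 and 57.2, at percentiles of 9.55, 69.7 and 56.5. The third, at chr1:193039854-193040503, scored 34.0, 301 and 34.2, at percentiles of 31.0, 87.8 and 26.9. It was thus in the upper part of the list of replicate 2, the longest, and in the lower part of the others. Its ranks were 4679.5, 4565 and 6482 in replicates 1, 2 and 3.

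The best Atf3 region, at chr1:193073804-193074403, scored 82.0, 459 and 63.2, at percentiles of 79.1, 93.5 and 61.3. The fifth, at the window border, scored 41.4, 251 and 51.2, at percentiles of 44.7, 84.5 and 51.0. Replicate 2 gave each of the 5 its highest percentile. The remaining shared region, at chr1:192909174-192909753, scored 132 in replicate 2 and 39.1 in replicate 3, at percentiles of 68.5 and 35.4. It lay 93.3 kb from the nearest of the others. Replicate 2 alone had 15 regions, with scores of 36.3 to 206. The strongest of them, at chr1:193007004-193007503, lay 4.45 kb from the first region of all 3 replicates. Between the first and the last region of all 3 replicates, 13 peaks of replicate 2 alone filled the gaps. In RefSeq order Batf3, another bZIP gene, and Fam71a lie on one side of Atf3, and Nenf and Pacc1 on the other.

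Dusp1, the MAP kinase phosphatase gene, had 2, 8 and 3 peaks in replicates 1, 2 and 3, in 8 regions. Its 3 shared regions lay within 23.3 kb of each other. The region at chr17:26651549-26652248 scored 55.4, 417 and 59.7, at percentiles of 62.1, 92.4 and 58.5, and was the widest of the 11 at 700 bp. The region at chr17:26674899-26675548 scored 33.7, 192 and 63.2, at percentiles of 30.5, 78.8 and 61.3. Between them, at chr17:26670699-26671198, replicate 2 scored 332 and replicate 3 scored 34.3, at percentiles of 89.3 and 27.0, and replicate 1 had no peak. A peak of replicate 2 alone at chr17:26645349-26645948 scored 368, at a percentile of 90.8, and lay 6.25 kb between centres from the first shared region. It outscored the region of replicates 2 and 3 in the same list and had no counterpart in replicates 1 and 3. The other 4 of replicate 2 alone scored between 65.3 and 144. At least 3 regions of at least 2 replicates were present in 8.30% of windows of this width. The first peak of any list had its centre 74.8 kb inside the window. Neurl1b and Luc7l precede Dusp1 in RefSeq order, and Ergic1 and Atp6v0e follow it.

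**Figure D4:**
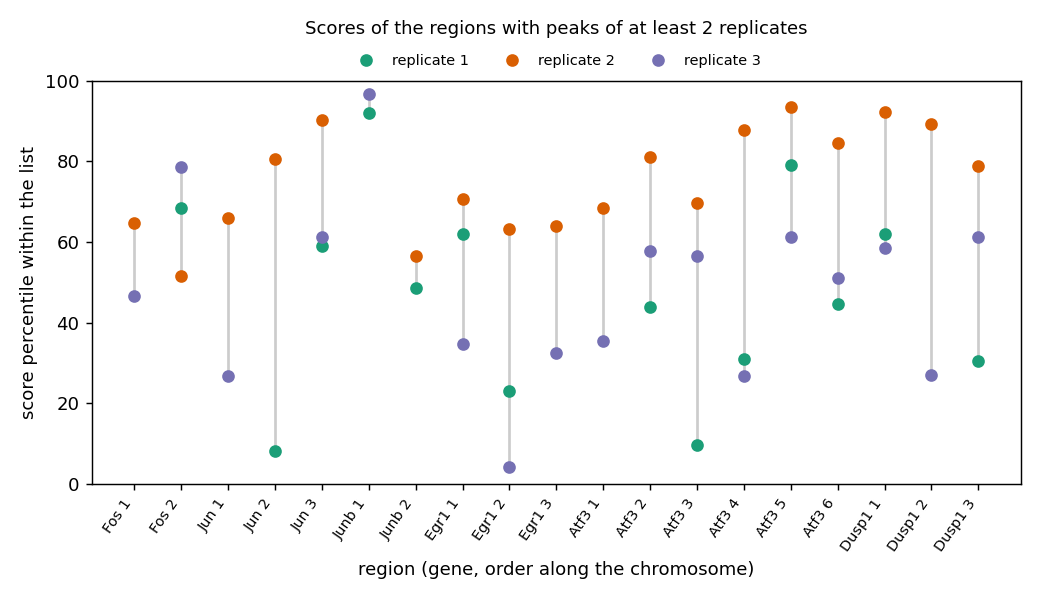
Score percentile within each replicate's list (vertical axis) for the 19 regions with peaks of at least 2 replicates (horizontal axis, numbered along the chromosome within each gene). Points are replicates, and grey lines join the points of 1 region. The first Junb region stands highest in replicates 1 and 3 at 92.1 and 96.7, and replicate 2 lies above the others in 10 of the 11 regions of all 3 replicates. Replicate 2's percentiles come from a much longer list and are not on the same footing.

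Across the 6 loci, the regions of all 3 replicates resembled those of the series in shape. Their widths ranged from 408 to 700 bp, with a median of 600 bp against 650 bp over the series. The centres of their 3 peaks lay 26 to 118 bp apart, with a median of 81 bp against 64 bp. Of the 35 regions seen in a single replicate, 17 had a region of at least 2 replicates within 10 kb between centres. Over the series this held for 6394 of 28708 such regions (22.3%). Atf3, whose window is dense, and Junb held most of the 17, while none of the 6 single-replicate regions of Fos was that close.

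Some borders cut through runs of peaks. The last Atf3 region of all 3 replicates had its replicate 1 centre 0.121 kb inside the window, and 1.65 kb outside lay a peak of replicate 2, with a score of 64.9, that also belonged to a region of all 3. On the low side of that window a further region of all 3 replicates lay 2.83 kb outside. Beside the Junb window a region of all 3 replicates lay 11.4 kb outside. Just beyond the Jun window, 3.65 kb outside, replicate 2 alone had a peak that scored 421, above all peaks of that list inside it. With the windows widened on both sides by 10% of their length, each of the 6 held a region of all 3 replicates.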

How the data were processed

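For each of the 3 replicates the authors deposited a list of peaks with a start, an end and a score of unstated scale; the build is mm9 per the submitters' processing notes. The peak names have the form that MACS writes; aligner, caller version and threshold: not given in the sources used here. A table deposited by the authors lists intervals covered by at least 2 replicates. The 6 windows, the genes and the motifs were chosen with earlier results of these data known. Peaks were put in a window by their centre. Peaks of different lists overlapping by at least 1 bp were merged into regions, with code tested on simulated data. Densities used the mm9 lengths of GenomeInfoDb 1.38.1 without the mitochondrial genome. Consecutive windows were laid from each chromosome's start, with gaps not set apart. Every region of at least 2 replicates is named, and peaks of 1 replicate are summarised. Single ones named were picked by their values, and the TGACG core was searched after the promoters had been read. Where in a window each gene lies was not used here, since the annotation at hand is of GRCm38, so no peak is assigned to a promoter; other immediate early genes were not analysed here. Alternatives concerned window size, list length, overlap rule and replicates. Tables were made with pandas 2.3.3 and numpy 2.4.6 under Python 3.11.15, intervals with scipy 1.17.1, and plots with matplotlib 3.10.9.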

Additional observations from a re-analysis of the deposited data

How the results depend on the processing

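The density ratio stayed above 1 under each alternative, from 3.79 ± 0.955 without the Atf3 window to 5.33 ± 0.064 without replicate 2 (SD, n = 3 and n = 2). It was 5.16 relative to the members' own chromosomes. The last comparison and the omission of Atf3 were chosen after seeing the data. The number of regions of all 3 replicates fell from 11 of 54 to 6 of 33 without the Atf3 window, against 12.3% over the series. It fell to 4 with the higher-scored 50% of each list, where the series had 2557 of 19166. With 6777 peaks from each list it fell to 5, where the series had 3391 of 11017. As a share of regions, both of these counts lay below the series, whereas the 11 of the full lists lay above it. Regions of at least 2 replicates numbered 19, and 10 and 12 under the same list limits, which follow from shorter lists. The 10 were 29.4% of the regions, against 24.8% over the series. With equal lists 3 windows kept a region of all 3 replicates in place of 5, and 54.5% of regions were shared by at least 2, against 53.8% over the series. Reciprocal overlap of 50% gave 15 regions of at least 2 replicates (24.6%, against 18.7% over the series). Of these, 8 were of all 3 replicates, in 4 windows. With centres within 100 bp there were 16 (27.6%, against 21.4%), with 10 of all 3 in 5 windows. Windows narrowed by 10% of their length held 14 (31.8%), with 9 of all 3. Leaving out replicate 1, 2 or 3 gave 16, 12 and 13 regions in both lists kept. These were 29.6%, 60.0% and 24.5% of the regions, against 21.2%, 45.0% and 16.4% over the series. The list of replicate 2 is the longest. The same omissions gave a mean of 16.0 to 35.0 peaks per list, and 5 or 6 windows with a region in both lists kept. With the AGGTCA core the members' promoters again had 0 matches. No paired analysis was possible because all samples belong to a single group. Depth is unknown, so a site without a peak is not shown to be unbound.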

Other observations

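The authors' deposited table holds 40 intervals in the 6 windows, which join into 19 regions, the same number as the regions of at least 2 replicates found from the lists. The replicates named in it matched the lists for 28 of the 40 as written and for 40 when the names of replicates 2 and 3 were exchanged. In the Junb window 0 of 2 intervals matched as written. Which of the names are right, those of the table or those of the lists, was not tested.

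In 8 regions of exactly 2 replicates, the peak numbers flanking the site in the list without a peak were examined. They were consecutive at the Junb site in replicate 2 and at the Atf3 site chr1:192909174-192909753 in replicate 1. At the other 6 sites 1 or 3 numbers were absent between the flanking peaks. Such gaps were common, as 39.1%, 19.7% and 38.8% of all numbers were absent in replicates 1, 2 and 3. Of 5000 regions of exactly 2 replicates over the series, 68.5% had an absent number between the flanking peaks of the third list. Flanking peaks can be far off, as at the Jun site chr4:94645776-94646325, where the one before lay 2423 kb away. An absent number therefore need not belong to the site. Whether a peak was called at these sites and left out of the lists was not tested.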
